A study of Mus musculus with 8 samples.

Results

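Established mouse embryonic germ (EG) cells were compared with cells on day 6 of the culture in which primordial germ cells become EG cells. The comparison used the 2 arrays titled EG and the 2 titled Day6, of 8 arrays in the series, and every probe of the deposited table. Of 23473 probes, 20103 had a value on all 4 arrays. In 9283 of these, both arrays of one group lay beyond both arrays of the other, which is called "no overlap" here. The remaining 4 arrays held 2 samples of primordial germ cells of day E11.5 of development (E11.5 PGC) and 2 of day 3 of culture (Day3). All samples carried Nanog-GFP, a fluorescent reporter of the pluripotency gene Nanog, and all, the EG samples included, have primordial germ cell as their labelled cell type. Day3, Day6 and EG are titled with the inhibitor mix 2i+A83: 1 µM PD325901, which blocks the kinase MEK, 3 µM CHIR99021, which blocks GSK3, and 250 nM A83-01, which blocks the type I receptors of TGF-beta, Activin and Nodal. The mix and the medium (Knockout DMEM with the serum replacement KSR, LIF and bFGF) stand in the labels of all 8 samples, so the labels do not tell whether the E11.5 PGC samples met them. The design text says that candidate pluripotent cells were purified by flow sorting during the culture. Nothing about the sort gate of each sample, the mouse strain or sex, the passage of the EG cells or any feeder layer was given in the sources used here. No label says that the arrays of a group came from separate cultures or EG lines, so p-values measure only the spread between these samples, which may be technical.

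Primordial germ cells are the embryonic precursors of eggs and sperm. They express much of the pluripotency network but normally form only gametes. Explanted with growth factors, some convert into EG cells, self-renewing lines much like embryonic stem (ES) cells. Blocking MEK and GSK3 holds mouse ES cells in the naive state, and LIF sustains them through STAT3. Germ cells also erase DNA methylation at imprinted genes, whose expression depends on the parent of origin. Cultures of ES cells contain rare cells that switch on genes of the cleavage-stage embryo, the Zscan4 family among them.

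Values are fluorescence intensities in scaled units with an array median near 20, and changes are EG minus Day6 on the log2 scale with their standard error (SE), for 2 arrays against 2. "Near the floor" means that both arrays of a group read under 4.24, the 25th percentile of the probes' mean intensities. The array names in the labels form 2 series: series A holds Day6 replicate 1 and both EG arrays, and series B holds Day6 replicate 2. What the series stand for is not given. The EG arrays differed from each other by a median absolute log2 value of 0.21, and 679 probes (3.38%) differed by more than 2-fold. The Day6 arrays differed by 0.50, with 4284 probes (21.3%) past 2-fold. The mean of EG differed from that of Day6 by 0.35, with 2353 probes (11.7%) past 2-fold. Averaging lowers this value, so it is not on a par with a difference between 2 single arrays. From the single Day6 arrays the mean of EG differed by 0.39 (replicate 1) and 0.47 (replicate 2), close to the 0.50 between the Day6 arrays. With 2 arrays a group an exact two-sided permutation test cannot give a p below 0.333.

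Markers of pluripotent cells were bright in both groups, apart from Esrrb and Tfcp2l1. Esrrb read 15.1 and 28.3 on the Day6 arrays and 17.9 and 22.2 on the EG arrays, and Tfcp2l1 10.3 and 48.8 against 9.63 and 10.4. Nanog read 4294 and 8992 on the Day6 arrays and 2422 and 4183 on the EG arrays, and Dppa5a, an RNA-binding protein of pluripotent and germ cells, 15762 and 19348 against 26506 and 28405. Zfp42, a naive-state marker, read 5822 and 3774 against 5342 and 5250.4. Some markers of fibroblasts set the Day6 arrays apart. Thy1 read 747 on Day6 replicate 1 and 10.7 on replicate 2, S100a4 1335 and 13.2, and the smooth muscle actin Acta2 198 and 6.14. On the EG arrays Thy1 read 96.6 and 71.04, S100a4 808 and 190.0 and Acta2 8.47 and 5.62. For the other fibroblast markers, the log2 change EG minus Day6 is given over alternative fits, which include leaving out each array. It ran from -2.05 to 0.08 for Col1a1 and -2.02 to 0.67 for Col1a2, but only from -0.85 to -0.35 for Postn. With missing values left out, the 26 fibroblast and mesenchyme genes on the array summed to 6894 on Day6 replicate 1, 3220.2 on replicate 2, and 3200.2 and 2552 on the EG arrays. The part of these genes' source in the other results was not tested. Likewise, the 18 blood and macrophage genes on the array summed to 689 and 646 on the Day6 arrays and 649 and 719 on the EG arrays. The 22 gonadal somatic genes summed to 163 and 120.2 and 168 and 189. Of their markers, Ptprc of blood cells was near the floor in both groups (2.81 and 3.71 against 4.04 and 3.04), as was Gata4 of gonadal somatic cells (2.23 and 3.77 against 1.35 and 1.83). Not every blood marker was that low: Csf1r read above the array median on every Day6 and EG array, with values given below with the blood list. In bulk samples, fewer cells of a type and less RNA per cell cannot be told apart.

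Between EG cells and day 6 culture, a short list of strongly changed transcripts passed the test, and its length depended on the fit. H19, Lefty1, Nphs1, Patl2 and Prph were the named genes with the largest rises, and Spic, Plagl1, Rab38 and Ppp2r2c were the named genes that fell. At an adjusted p under 0.05 in limma, with no overlap, 38 of 20103 probes were called: 32 higher in EG (0.159% of probes) and 6 lower (0.0298%). Of the 38, 11 have no gene symbol. A second fit, in which the array series was a block, called 457 probes, 292 higher in EG (1.45%) and 165 lower (0.821%), with all 38 among them. Since EG has no series B array, this fit takes the difference between the series as equal for all groups. The series ran through the other groups: between E11.5 PGC, Day3 and Day6, which each have 1 array of either series, the deviations of the arrays from their group means correlated at 0.55 to 0.69 over 19524 probes. The first fit has no term for this. At an unadjusted p under 0.05 the fits held 2732 and 4692 probes. The calls rest on all 8 arrays: the first fit called 0 probes without either EG array or either Day6 array, 2 without an E11.5 PGC array and 7 without a Day3 array. The blocked fit called 0 without Day6 replicate 1, 250 without Day6 replicate 2, 19 without either EG array, 4 without a Day3 array and 467 without an E11.5 PGC array. A gene that rose or fell in the first fit is given with that fit's adjusted p, and one called with the block alone with the blocked value, named as such. None of the 16 genes described here that the first fit called, nor of the 54 that the blocked fit called, kept its call in every alternative. Their highest adjusted p over the alternatives reached 0.287 and 0.263.

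No overlap alone was common. Of the 20103 probes, 4706 (23.4%) had both EG arrays above both Day6 arrays and 4577 (22.8%) had both below. The gap between the groups exceeded 2-fold in 724 of these probes (472 higher and 252 lower), 4-fold in 117 (83 and 34) and 8-fold in 26 (21 and 5). At the border, Dcaf8 lay just inside, at 103.6 and 121 in EG against 103.6 and 86.6 in Day6. Mre11a lay just outside, at 289 and 254 against 254 and 174.

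**Figure D1:**
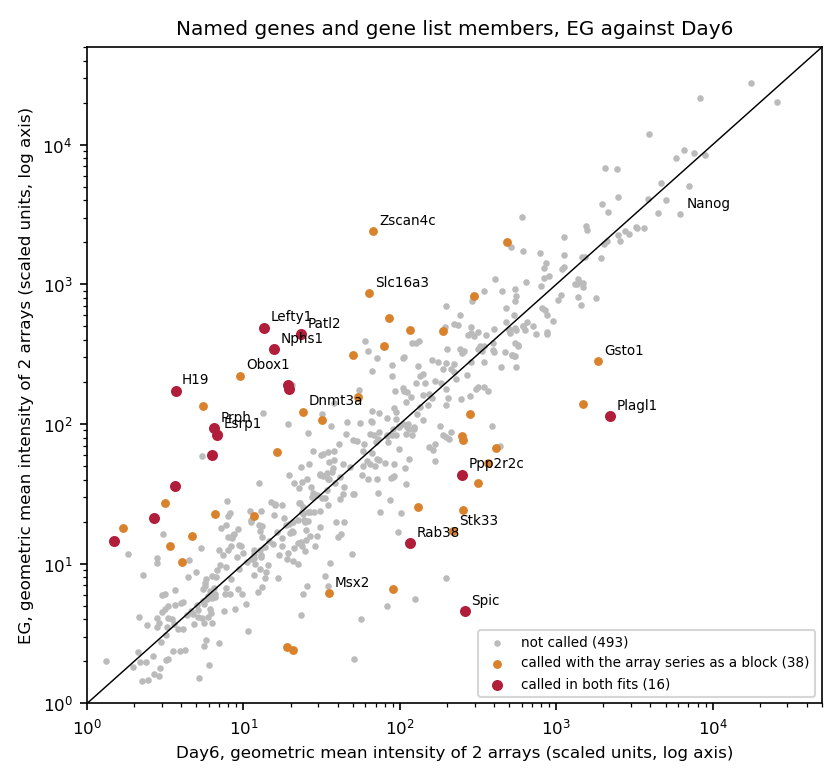
Geometric mean intensity of the 2 EG arrays against that of the 2 Day6 arrays, both on log axes, for the named genes and the members of the gene lists. Each point is 1 gene, the line marks equal intensity, and colours mark the 16 genes called in both fits, the 38 called only in the blocked fit and the 493 not called. H19, Lefty1, Nphs1 and Patl2 stand far above the line, and Spic and Plagl1 far below it.

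Among the genes that rose, H19, an imprinted long non-coding RNA, read 3.70 and 3.67 on the Day6 arrays, near the floor, and 149.8 and 201 on the EG arrays. Its change was 5.56 ± 0.57 (limma adjusted p = 0.0330). The EG arrays overlapped with the E11.5 PGC arrays (136 and 150.1), while Day3 read 72.1 and 18.97. Lefty1, a secreted inhibitor of Nodal signalling, read 13.2 and 13.99 in Day6 and 551 and 434 in EG, a 35.9-fold difference with a log2 change of 5.17 ± 0.34 (adjusted p = 0.0110). It too was high in E11.5 PGC (400.4 and 269) and low in Day3 (10.8 and 17.4). Nphs1, which encodes the kidney slit-diaphragm protein nephrin, read 13.7 and 18.1 against 436 and 269.7, 21.8-fold higher in EG (log2 change 4.44 ± 0.32, adjusted p = 0.0110). Its E11.5 PGC values, 78.7 and 66.98, lay between those of EG and Day6.

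Patl2, an RNA-binding repressor of translation known from oocytes, followed another course. It was near the floor in E11.5 PGC (3.63 and 3.04), read 57.1 and 54.2 in Day3 and 30.7 and 17.9 in Day6, and reached 487 and 395 in EG, 18.7-fold over Day6 (log2 change 4.23 ± 0.32, adjusted p = 0.0117). Prph, the neuronal intermediate filament peripherin, was low in all other groups (4.56 and 4.38 in E11.5 PGC, 9.96 and 7.06 in Day3, 6.89 and 6.16 in Day6) and read 90.2 and 96.3 in EG, 14.3-fold over Day6 (adjusted p = 0.0110). Duxbl1, a Dux-like homeobox gene, read 5.03 and 9.11 against 69.9 and 98.7 (12.3-fold, adjusted p = 0.0241). For Duxbl1 the EG arrays bracketed the E11.5 PGC arrays (79.1 and 80.6).

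The remaining genes of the 12 with the largest rises in the first fit changed by 2.99 to 3.31 on the log2 scale. The amino acid transporter Slc7a7 read 22.7 and 16.5 in Day6 and 271 and 136 in EG (adjusted p = 0.0360). The lysosomal transporter Slc46a3 read 4.42 and 3.06 against 49.2 and 26.6 (0.0360), and the lipid transporter Abca7 26.3 and 14.5 against 203 and 157 (0.0355). In these 3 genes EG replicate 1 was brighter than replicate 2. Robo4, a guidance receptor known from endothelium, read 7.48 and 5.21 against 53.5 and 68.1 (0.0241). Prtn3, the neutrophil protease proteinase 3, and Morn1 were dim: Prtn3 read 1.99 and 1.11 against 12.2 and 17.4 (0.0343) and Morn1 2.91 and 2.49 against 17.7 and 25.7 (0.0330), with Day6 near the floor in both. For these low levels the size of the change depends on how near 0 the authors' values run.

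Spic showed the largest fall. It encodes an ETS-family transcription factor known from red pulp macrophages. It read 231 and 294 on the Day6 arrays and 2.67 and 7.75 on the EG arrays, a log2 change of -5.84 ± 0.63 (limma adjusted p = 0.0355). The E11.5 PGC arrays read 10.8 and 4.63 and the Day3 arrays 78.4 and 156, so both culture days lay above E11.5 PGC and EG with no overlap. Plagl1, an imprinted zinc-finger transcription factor, read 2152 and 2258 in Day6 and 78.2 and 164 in EG, 19.5-fold lower (log2 change -4.28 ± 0.47, adjusted p = 0.0355). Day3 (903 and 657) lay between, and E11.5 PGC (314 and 153) overlapped with EG. Rab38, a small GTPase of melanosome transport, fell from 111 and 121 to 15.1 and 13.2 (-3.04 ± 0.23, adjusted p = 0.0117); E11.5 PGC (20.5 and 19.9) and Day3 (24.7 and 24.4) were also low. Ppp2r2c, a regulatory subunit of the phosphatase PP2A, fell from 203 and 307 to 39.03 and 48.2 (-2.52 ± 0.30, adjusted p = 0.0402).

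The start-site windows of the named genes with the largest falls, Spic and Plagl1, are shown because they differ in the CpG dinucleotides (CG, in capitals) at which mammalian DNA is methylated. They were chosen after the values were seen. The sequences are RefSeq's, build GRCm38.p6, and run from 250 bases before to 50 bases after the start listed there. Plagl1 is at chr10:13090582-13090881 on the plus strand and Spic at chr10:88682974-88683273 on the minus strand. The Plagl1 window holds 26 CG and the Spic window 3, against a median of 18 over the 11555 tested genes with a window and of 7 over all 32851 windows of the table. These arrays do not measure methylation.
Plagl1: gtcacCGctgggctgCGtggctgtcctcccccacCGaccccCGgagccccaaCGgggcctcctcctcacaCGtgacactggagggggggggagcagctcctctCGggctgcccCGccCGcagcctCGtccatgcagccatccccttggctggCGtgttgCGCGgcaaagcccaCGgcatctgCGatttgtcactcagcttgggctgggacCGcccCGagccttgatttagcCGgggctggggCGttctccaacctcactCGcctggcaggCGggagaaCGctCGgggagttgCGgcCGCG
Spic: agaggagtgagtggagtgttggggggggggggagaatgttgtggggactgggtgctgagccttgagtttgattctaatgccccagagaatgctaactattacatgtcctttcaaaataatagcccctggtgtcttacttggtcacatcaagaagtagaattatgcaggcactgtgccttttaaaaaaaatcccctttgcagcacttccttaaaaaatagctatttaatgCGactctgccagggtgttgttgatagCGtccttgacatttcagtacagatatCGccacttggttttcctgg

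The blocked fit added other genes with large falls. Stk33, a serine/threonine kinase, read 209 and 231 in Day6 and 10.6 and 27.5 in EG (log2 change with the block -3.84 ± 0.58, adjusted p = 0.0373). The lens crystallin Crygf read 226 and 282 against 15.1 and 38.6 (0.0412). Both genes were low in E11.5 PGC and Day3: Stk33 read 8.13 and 3.26 and 9.57 and 11.2, and Crygf 4.70 and 2.88 and 12.2 and 20.05. Ipp, a kelch-repeat protein, read 438 and 305 against 52.9 and 52.8 (0.0263) and the stress-related transferase Gsto1 2443 and 1415 against 329 and 239 (0.0142). The transcriptional co-regulator Cited1 read 484 and 351 against 48.2 and 95.1 (0.0246), and Ceacam10, a secreted member of the carcinoembryonic antigen family, 209 and 471 against 28.98 and 49.8 (0.0408).

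In some blocked calls the 2 Day6 arrays were far apart. The surface antigen Ly6c1 read 4123 on Day6 replicate 1 but 532 on replicate 2, against 246 and 78.7 in EG (blocked adjusted p = 0.0408). Serpinb1b, a protease inhibitor, read 47.8 and 8.98 against 2.57 and 2.25 (0.0210). The receptor Epha4 was the other way round, at 45.5 on replicate 1 and 179.8 on replicate 2, against 5.06 and 8.61 (0.0210). Cd3g, a T-cell receptor subunit, was not called in either fit although it read 114 and 137 against 2.17 and 14.2: its EG arrays differed more than 6-fold, and the first fit, without the E11.5 PGC arrays and Day3 replicate 1, which had no value, gave -4.50 ± 0.89 (adjusted p = 0.145).

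**Figure D2:**
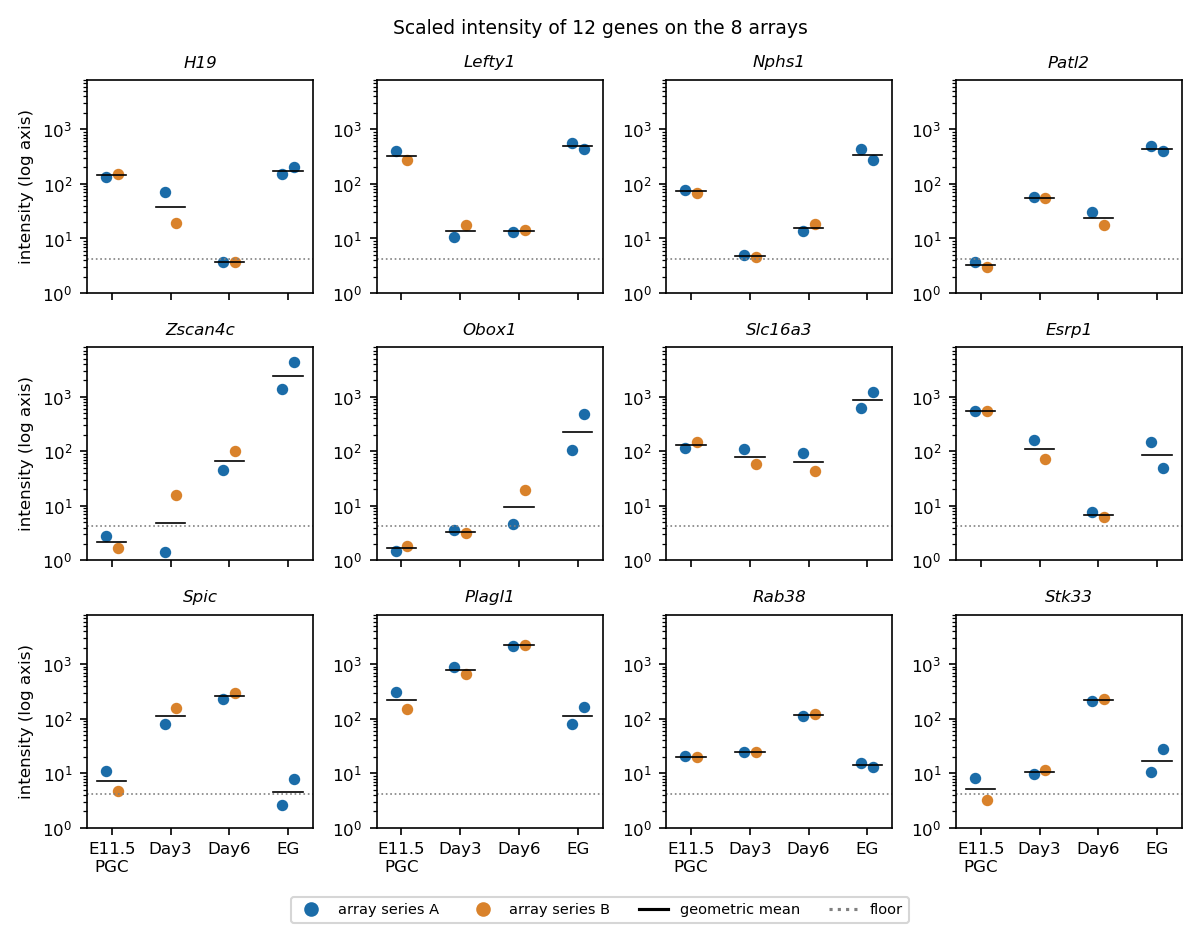
Intensity of 12 genes on each of the 8 arrays on log axes, with 1 point per array, a bar at the geometric mean of each group, and a dotted line at the floor of 4.24. Colours mark the array series. H19, Lefty1 and Nphs1 are low in Day6 and high in E11.5 PGC and EG, Patl2, Zscan4c and Obox1 are highest in EG, and Spic, Plagl1, Rab38 and Stk33 are highest in Day6.

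Some genes of the cleavage-stage embryo and the oocyte were among the largest rises with the block, and these were uneven between the EG arrays. Zscan4c, a zinc-finger gene of cleavage embryos linked to telomere upkeep in ES cells, read 45.6 and 100.2 in Day6 and 1368 and 4256 in EG. Its change was 5.16 ± 1.11 in the first fit (adjusted p = 0.125, not called) and 5.81 ± 1.03 with the block (0.0485, from 0.0122 to 0.211 over the alternatives). The E11.5 PGC arrays (2.79 and 1.71) were near the floor, and Day3 read 1.44 and 16.1. Obox1, an oocyte-specific homeobox gene, read 4.61 and 19.7 against 104 and 474 (4.91 ± 0.85 with the block, 0.0443). Tdpoz3, a BTB-domain gene of early embryos, read 3.00 and 3.33 against 16.9 and 43.6 (0.0408), with Day6 near the floor. In all 3 genes EG replicate 2 was more than 2-fold brighter than replicate 1, and both lay above both Day6 arrays.

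Tdpoz4 (11.2 and 28.1 in EG), Obox6 (26.9 and 64.4), Pramel6 (12.4 and 42.9) and Pramel7 (49.8 and 141), of the same list, had that split too, but none was called and only Tdpoz4 had the higher mean in EG. So EG replicate 2 was more than 2-fold above replicate 1 in 7 of the 27 genes of this list with values on all 4 arrays, and in 0 the other way round. The other called genes of the list did not have it. Padi6, a protein of oocyte cytoplasmic lattices, read 14.7 and 18.4 against 61.1 and 64.1 (1.87 ± 0.27 with the block, 0.0345). Zp3, the sperm-binding protein of the egg coat, fell from 139 and 123 to 29.5 and 22.1 (-2.45 ± 0.32 with the block, 0.0263). The NLR-family oocyte gene Nlrp4c read 8.94 and 60.6 against 3.73 and 5.01 and was not called. Of the 27 genes, 12 had no overlap with EG higher and 7 with EG lower, against 23.4% and 22.8% of all probes. The median change was 0.26, against -0.01 over all probes tested. With the block 4 rose and 1 fell.

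The Zscan4 genes are near-identical copies, which a single probe may not separate, so the Zscan4c value is uncertain as to the copy. The windows around the starts of Zscan4c (chr7:11005495-11005794) and Zscan4f (chr7:11397665-11397964), both on the plus strand of GRCm38.p6 and taken from RefSeq, show the likeness. Where they overlap, 275 of 277 bases were the same. For Zscan4d the count was 281 of 289, and for Zscan4b 264 of 277. Most of each window lies before the start, and no probe sequence was given in the sources used here. The windows therefore do not tell which copies the probe separates. Capitals mark TATAAA, the core of a TATA box, which 4473 of 32851 windows (13.6%) hold on either strand.
Zscan4c: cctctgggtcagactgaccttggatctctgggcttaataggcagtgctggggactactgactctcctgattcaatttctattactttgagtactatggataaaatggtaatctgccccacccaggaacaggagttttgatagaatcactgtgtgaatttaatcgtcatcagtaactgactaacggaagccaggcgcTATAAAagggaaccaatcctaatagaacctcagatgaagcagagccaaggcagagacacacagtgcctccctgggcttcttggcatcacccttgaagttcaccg
Zscan4f: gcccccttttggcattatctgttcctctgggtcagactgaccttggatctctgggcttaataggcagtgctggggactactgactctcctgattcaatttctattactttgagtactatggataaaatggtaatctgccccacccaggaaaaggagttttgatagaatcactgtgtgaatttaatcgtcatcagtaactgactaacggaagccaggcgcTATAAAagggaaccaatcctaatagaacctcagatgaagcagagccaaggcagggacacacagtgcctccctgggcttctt

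The pluripotency network showed no called gene in either fit of limma. At an unadjusted p under 0.05 in limma it held 6 of 16 core and 4 of 22 naive genes in the first fit, and 5 and 4 in the blocked one. Over all 20103 probes these counts were 2732 and 4692, against which the unadjusted counts of the lists below also stand. The no-overlap counts of these and later lists stand against 23.4% of all probes with EG higher and 22.8% with EG lower. Among 16 core pluripotency genes, 4 had no overlap with EG higher and 5 with EG lower, with a median change of -0.21. Utf1, a chromatin-associated factor of pluripotent cells, read 642 and 412 in Day6 and 2077 and 1636 in EG (1.84 ± 0.41, adjusted p = 0.132). The Nodal co-receptor Tdgf1 read 2344 and 2529 against 5214 and 8475 (adjusted p = 0.297). Both EG arrays lay above both Day6 arrays in each. Nanog itself had no overlap in the opposite direction (-0.97 ± 0.46, adjusted p = 0.425), although EG replicate 2 and Day6 replicate 1 were nearly equal. Zscan10, a partner of the core factors, read 13.3 and 43.2 against 6.64 and 5.59, and the corepressor Trim28 1184 and 1743 against 786 and 638.

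Of 22 naive pluripotency regulators, 5 had no overlap with EG higher and 6 with EG lower (median -0.16). The nuclear receptor Nr0b1 read 933 and 671 against 1850.2 and 1516 (1.08 ± 0.33, adjusted p = 0.218), and Nr5a2 95.1 and 292 against 59.9 and 50.02. Klf4 (859 and 774 against 550.0 and 846), Tbx3 (206 and 580.0 against 160.4 and 209.6) and Esrrb (15.1 and 28.3 against 17.9 and 22.2) overlapped. Among 16 genes of the primed epiblast, the later pluripotent state, 7 had no overlap with EG higher and 5 with EG lower, and the sign of their median (-0.03) turned in 6 of 17 settings. Otx2, a transcription factor of that state, read 69.5 and 160.4 against 276 and 333 (1.52 ± 0.60, adjusted p = 0.335). The list's called members, Lefty1 and, with the block, Dnmt3a, stand in other lists too.

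None of 17 early germ cell genes was called in either fit of limma, with 2 and 4 at an unadjusted p under 0.05. Dnd1, an RNA-binding protein that germ cells need to survive, read 2140.0 and 1555 in E11.5 PGC, 43.02 and 30.7 in Day6 and 89.3 and 104 in EG (1.41 ± 0.39, adjusted p = 0.192). The stem cell factor receptor Kit read 136 and 313 against 63.3 and 97.6. Prdm1, which specifies germ cells, read 16.1 and 15.7 against 35.6 and 19.6, and Dppa3 overlapped (456 and 1648 against 843 and 424). The germ cell RNA-binding protein Dazl read 2024 and 1867 in E11.5 PGC, 188 and 1024 in Day6 and 39.2 and 124 in EG, with Day6 replicate 2 far above replicate 1 (-2.65 ± 0.86, adjusted p = 0.247). The RNA helicase Ddx4 read 187 and 182 against 201 and 191.

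Mael, a factor of piRNA silencing of transposons, rose with the block, from 164 and 82.3 to 455 and 493 (1.57 ± 0.21, adjusted p = 0.0278). It was the 1 call among 22 later germ cell and piRNA genes, of which 6 had no overlap with EG higher and 6 with EG lower. Meiosis genes were more one-sided. Of 21, 10 (47.6%) had no overlap with EG higher and 1 (4.76%) with EG lower, against 23.4% and 22.8% of all probes. Their median was 0.71. That median was 0.78 against Day6 replicate 1 and 0.03 against replicate 2. Stag3, the meiotic cohesin subunit, rose with the block from 27.02 and 36.8 to 104 and 108 (1.76 ± 0.25, 0.0312), and Sohlh1, a germ cell transcription factor, from 9.31 and 14.4 to 20.9 and 23.1 (0.0432). Sycp3, of the synaptonemal complex axis, read 49.9 and 77.5 against 289 and 378 (2.41 ± 0.50, adjusted p = 0.119), and was not called. The recombinase Dmc1 (6.61 and 10.1 against 18.1 and 29.1) and Mei4 (11.04 and 10.8 against 26.5 and 21.6) were dim, with no overlap.

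**Figure D3:**
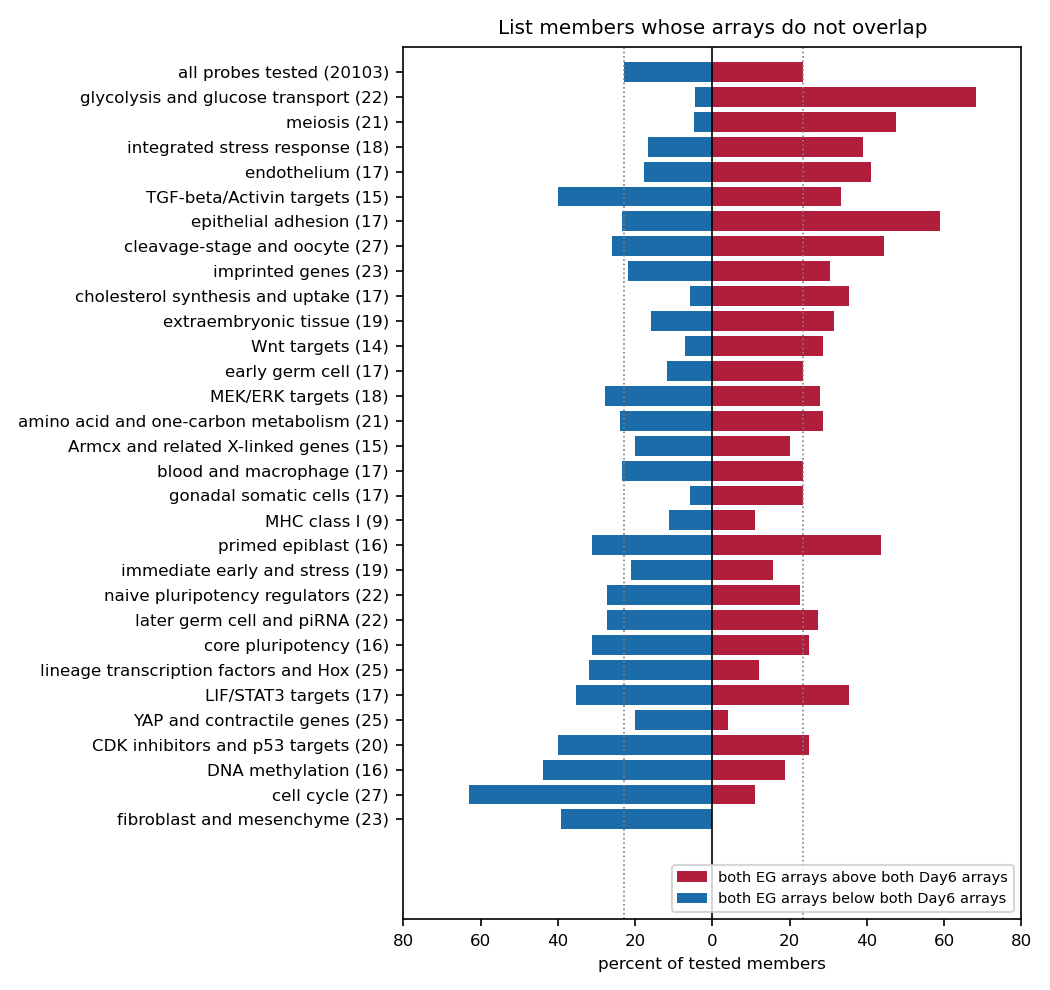
Percent of the tested members of each gene list whose EG arrays both lay above (right) or both below (left) the 2 Day6 arrays. Numbers in brackets give the genes tested, and dotted lines mark the shares over all 20103 probes, 23.4% and 22.8%. Glycolysis, epithelial adhesion and meiosis have the longest bars to the right, and the cell cycle the longest to the left.

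Among the signalling lists, the TGF-beta and Activin list held the most calls, and these went both ways. Besides Lefty1, the receptor-pathway inhibitor Pmepa1 read 117 and 53.4 in Day6 and 307 and 429 in EG (1.66 ± 0.28 with the block, 0.0420). Smad7, an inhibitory Smad induced by the pathway, read 56.05 and 52.3 against 161 and 149 (1.36 ± 0.23, 0.0440). The matricellular gene Ccn1, also a YAP target, fell from 279 and 228 to 62.5 and 93.3 (-1.74 ± 0.28, 0.0396). Id3, which responds to BMP, read 483 and 316 against 99.98 and 92.7 with no call (-2.02 ± 0.59, adjusted p = 0.207). With the block 3 of 15 (20%) rose and 2 (13.3%) fell, against 1.45% and 0.821% of all probes. Of the 15, 5 (33.3%) had no overlap with EG higher and 6 (40%) with EG lower, against 23.4% and 22.8%. The median was 0.40, but -0.28 against Day6 replicate 1 and 1.09 against replicate 2.

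None of 18 MEK/ERK targets was called by limma (3 at an unadjusted p under 0.05, 4 with the block), and 5 and 5 had no overlap with EG higher and lower. The feedback phosphatase Dusp6 read 36.4 and 4.90 against 136 and 105, the inhibitor Spry4 2.63 and 1.26 against 13.1 and 10.5, and Spry1 9.68 and 6.48 against 25.2 and 19.2 (adjusted p = 0.268, 0.280 and 0.162). Spry2 read 19.3 and 22.96 against 14.3 and 11.7, and Etv4 105 and 28.3 against 177 and 173. The median (0.15) was -0.30 against Day6 replicate 1 and 0.52 against replicate 2. Of 17 LIF/STAT3 targets, 6 had no overlap in each direction, and the kinase Pim3 rose with the block from 334 and 266 to 819 and 838 (1.28 ± 0.19, 0.0367). The STAT-induced inhibitor Cish read 12.02 and 13.8 against 23.8 and 23.8 with no call. None of 14 Wnt targets was called by limma (2 and 3 at an unadjusted p under 0.05 in the 2 fits). The caudal homeobox gene Cdx1 read 112 and 116 against 53.2 and 59.5 (-1.02 ± 0.24, adjusted p = 0.145).

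Glycolysis and glucose transport had the most one-sided pattern of the lists. Of 22 genes, 15 (68.2%) had no overlap with EG higher, against 23.4% of all probes. With EG lower it was 1 (4.55%), the hexokinase Hk1, against 22.8%. The lactate exporter Slc16a3 read 92.7 and 43.6 in Day6 and 618 and 1200.0 in EG (3.76 ± 0.51, adjusted p = 0.0576). It rose with the block (3.49 ± 0.48, 0.0293), as did the aldolase Aldoc, from 133 and 54.8 to 421 and 775 (2.15 ± 0.34, 0.0407). The other 13 were not called. Pdk1, the kinase that holds pyruvate out of the mitochondrial cycle, read 34.3 and 12.2 against 188 and 193. The glucose transporter Slc2a1 read 519.9 and 312 against 922 and 1276, the phosphofructokinase Pfkl 57.98 and 24.5 against 121 and 167, and Tpi1 1395 and 262 against 2535 and 3582. In these 6 genes with EG higher, Day6 replicate 2 was lower than replicate 1. The list's median change was 0.96, or 0.61 with the block, 0.58 against Day6 replicate 1 and 1.54 against replicate 2.

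Other metabolic lists were mixed. Of 21 amino acid and one-carbon genes, 6 and 5 had no overlap with EG higher and lower. The glutamine transporter Slc1a5 fell with the block from 242 and 255 to 81.9 and 82.4 (-1.51 ± 0.27, 0.0485). The mitochondrial folate enzyme Mthfd2 read 414 and 289 against 968 and 819 and the branched-chain aminotransferase Bcat1 2094 and 1543 against 649 and 968, both without a call. Of 17 cholesterol genes, 6 had no overlap with EG higher and 1 with EG lower. The sterol reductase Tm7sf2 read 106 and 74.5 against 274 and 253 (1.57 ± 0.46, adjusted p = 0.206). Of 18 integrated stress response genes, 7 and 3 had no overlap with EG higher and lower, with a median of 0.69 (0.07 against Day6 replicate 1). Nupr1, a stress-induced chromatin protein, read 115 and 31.1 against 460.1 and 330.1, and Ddit4, an inhibitor of mTOR signalling, 199 and 278 against 459 and 564. Neither was called.

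Cell cycle genes were mostly a little dimmer in EG. Of 27, 17 (62.96%) had no overlap with EG lower and 3 (11.1%) with EG higher, against 22.8% and 23.4% of all probes. Their median was -0.39. None was called in either limma fit, and 5 and 12 had an unadjusted p under 0.05. The S-phase cyclin Ccne2 read 70.9 and 72.3 in Day6 and 38.8 and 42.05 in EG (-0.83 ± 0.24, adjusted p = 0.209). The mitotic kinase Plk1 read 276 and 284 against 151 and 169, the replication licensing factor Cdc6 339.9 and 297 against 203 and 167, and the helicase subunit Mcm2 386 and 508 against 267 and 244. In these 4 genes the gap was wider than the distance between the arrays of either group. They were named for having the largest gaps of the list, so this does not describe its other members. The proliferation antigen Mki67 was among the 3 genes with EG higher. Of 20 CDK inhibitors and p53 targets, 8 (40%) had no overlap with EG lower and 5 (25%) with EG higher, the latter near the share of all probes. The CDK inhibitor Cdkn1a (p21) fell with the block from 361 and 219 to 115 and 122 (-1.70 ± 0.22, 0.0265). Pmaip1, which encodes the pro-apoptotic protein Noxa, rose with the block from 70.6 and 35.1 to 259.9 and 372 (1.96 ± 0.32, 0.0408). Ccng1, a p53 target, read 528 and 604 against 367 and 361 with no call.

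**Figure D4:**
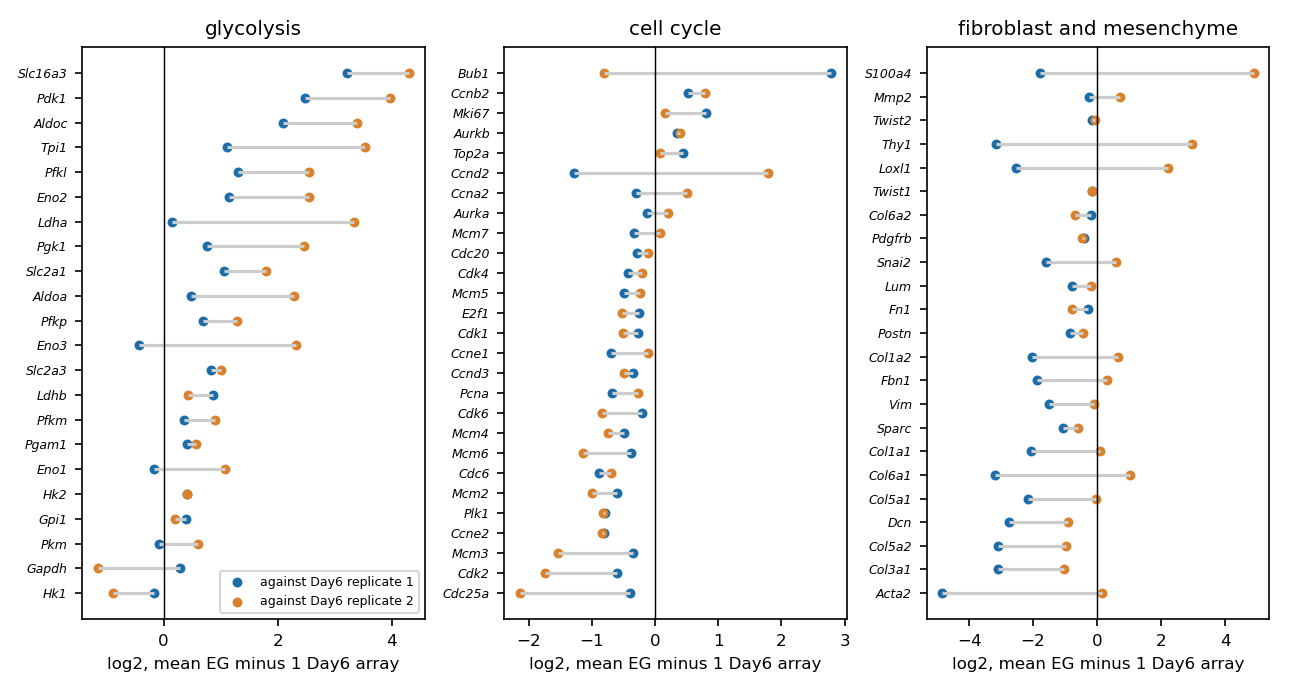
Log2 difference between the mean of the EG arrays and each single Day6 array, for the members of 3 gene lists, with 1 row per gene and the vertical line at 0. Most glycolysis genes lie right of 0 against both Day6 arrays, and most cell cycle genes left of it. Many fibroblast genes lie far left of 0 against Day6 replicate 1 only, Thy1 and Acta2 among them.

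DNA methylation genes gave 1 call with the block. Dnmt3a, a de novo DNA methyltransferase, read 19.8 and 28.96 in Day6 and 131 and 115 in EG (2.76 ± 0.34, blocked adjusted p = 0.0229; 0.122 in the first fit). Its E11.5 PGC values were 61.4 and 76.95 and its Day3 values 12.6 and 36.8. Of 16 genes, 7 had no overlap with EG lower and 3 with EG higher, with a median of -0.39. Among those lower without a call were Mbd3, of the NuRD complex (443 and 692 against 257 and 253), and the demethylation glycosylase Tdg (139 and 276 against 68.6 and 93.6), the latter from the brighter of its probes. The methylcytosine dioxygenase Tet2 read 19.9 and 82.5 against 15.5 and 15.3, and its Day6 arrays differed about 4-fold.

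H19 and Plagl1, called in opposite directions, are both imprinted, but the list of imprinted genes was not one-sided. Of 23 genes, 7 had no overlap with EG higher and 5 with EG lower, with a median of 0.24. The maternally expressed non-coding RNA Meg3 rose with the block from 158 and 224 to 537 and 396 (1.49 ± 0.24, 0.0408). Its order over the groups was E11.5 PGC (63.3 and 91.3), Day3 (122 and 139), Day6, EG. The paternally expressed Snrpn read 748 and 509 against 1912 and 1555 (blocked adjusted p = 0.0506), and was not called. The maternally expressed growth inhibitors Cdkn1c (10.4 and 15.4 against 33.6 and 42.2) and Phlda2 (131 and 107 against 463 and 310.3) were also not called. In E11.5 PGC they read 221 and 200.4 and 2076 and 1736.

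Epithelial adhesion genes were often brighter in EG. Of 17, 10 (58.8%) had no overlap with EG higher and 4 (23.5%) with EG lower, against 23.4% and 22.8% of all probes. Esrp1, an epithelial splicing regulator, read 7.63 and 6.15 in Day6 and 147 and 48.9 in EG and rose with the block (3.38 ± 0.58, 0.0437). Its EG arrays differed about 3-fold, and E11.5 PGC read 545 and 554. The adhesion molecule Epcam rose with the block from 523 and 443 to 2326 and 1719 (1.73 ± 0.29, 0.0424). The tight-junction protein Tjp3 read 21.997 and 16.8 against 133 and 74.6 and the desmosomal Pkp3 29.6 and 22.6 against 73.1 and 102, with blocked adjusted p of 0.0531 and 0.0546. Cdh1, E-cadherin, had no overlap with EG lower.

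Fibroblast and mesenchyme genes had 9 of 23 (39.1%) with no overlap and EG lower, and 0 higher, against 22.8% and 23.4% of all probes. None was called in either limma fit, and 4 and 6 had an unadjusted p under 0.05. Their median was -0.65, but it was -1.77 against Day6 replicate 1 and -0.05 against replicate 2. The collagens Col3a1 (101 and 24.1 against 13.5 and 10.4) and Col5a2 (69.7 and 15.95 against 7.87 and 8.59) were highest on Day6 replicate 1. The matrix protein Sparc, at 647 and 464 against 267 and 358, differed less between the Day6 arrays. Of 25 YAP and contractile genes, 5 (20%) had no overlap with EG lower, near the share of all probes, and 1 (4%) with EG higher. Their median was -1.004 against replicate 1 and 0.39 against replicate 2. Besides Ccn1, none was called. The YAP regulator Amotl2 read 178 and 159 against 56.9 and 91.99.

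**Figure D5:**
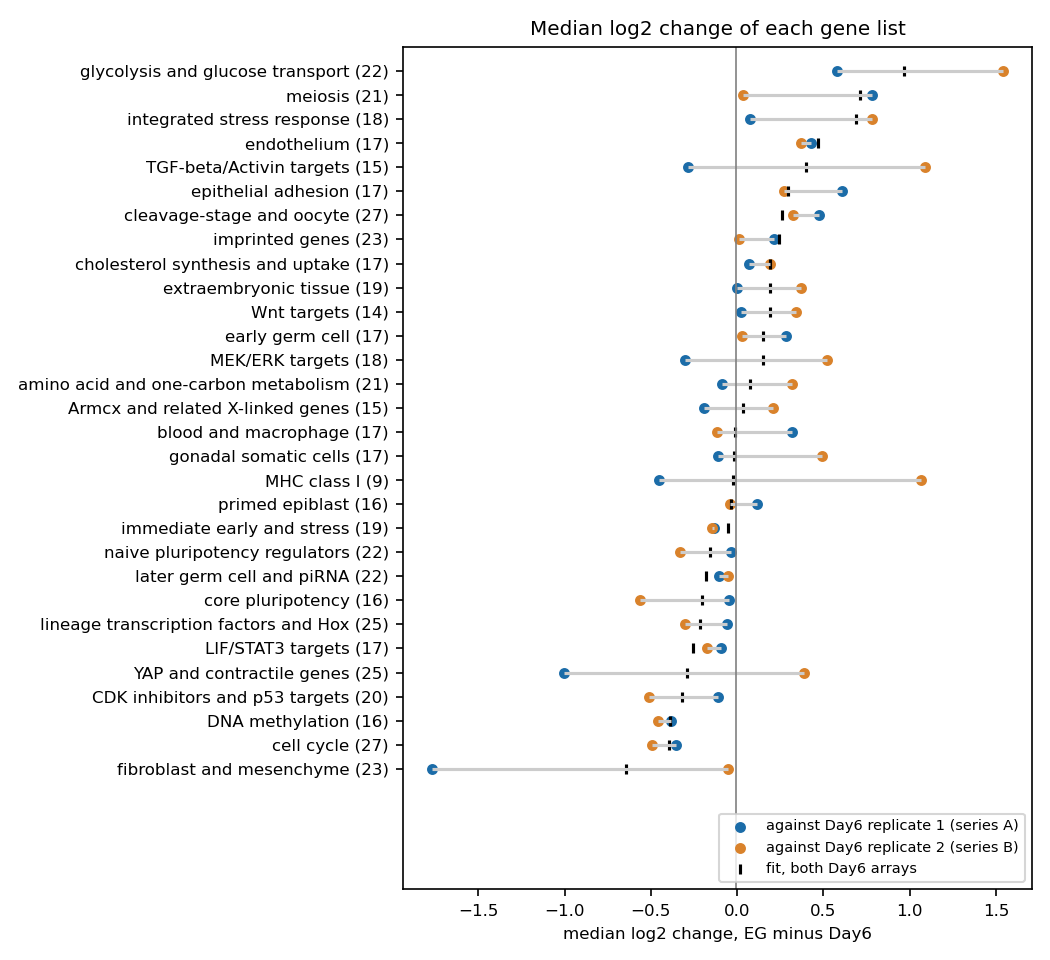
Median log2 change of each of 30 gene lists, EG minus Day6, with the genes tested in brackets. Blue points set the mean of EG against Day6 replicate 1, orange points against replicate 2, black ticks show the fit with both Day6 arrays, and the grey line marks the median of all probes (-0.01). The fibroblast, YAP, MHC class I and TGF-beta lists have the widest distance between the 2 points, and glycolysis lies right of the line against both.

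Lists of other cell types gave calls for endothelium and blood, but none for gonadal somatic or extraembryonic genes. In the endothelium list of 17, Robo4 rose. In that list 7 (41.2%) had no overlap with EG higher and 3 (17.6%) with EG lower, against 23.4% and 22.8% of all probes. The endothelial receptors Kdr (19.6 and 21.8 against 15.8 and 18.2) and Tek (7.02 and 21.5 against 5.97 and 6.52) were not called. In the blood and macrophage list of 17, Spic fell, and the leukocyte genes Coro1a (4.94 and 4.46 against 16.97 and 14.8) and Cd52 (3.29 and 5.03 against 9.41 and 11.2) rose with the block at low levels (0.0390 and 0.0292). With the block, 11.8% of the blood list rose and 5.88% fell, against 1.45% and 0.821% of all probes. The macrophage receptor Csf1r overlapped (22.6 and 34.3 against 34.9 and 25.8). None of 17 gonadal somatic genes or 19 extraembryonic genes was called in either limma fit, with 3 and 3 at an unadjusted p under 0.05 in the first and 4 and 5 in the blocked one. The gonadal genes Rspo1 (2.61 and 3.62 against 17.9 and 15.1), Inha (3.73 and 1.40 against 5.96 and 11.7) and Cyp11a1 (8.40 and 7.20 against 14.3 and 24.8) had no overlap with EG higher, at low levels. Among 25 lineage transcription factors and Hox genes, the BMP-responsive homeobox gene Msx2 fell with the block from 40.9 and 30.03 to 5.85 and 6.41 (-2.96 ± 0.46, 0.0390). It read 227 and 197 in E11.5 PGC and 61.7 and 15.2 in Day3. The mesendoderm gene Mixl1 read 5.66 and 4.77 against 1.97 and 1.19 and was not called. Of 9 MHC class I pathway genes, the immunoproteasome subunit Psmb8 rose with the block from 4.64 and 9.41 to 20.05 and 25.9 (2.38 ± 0.23, 0.0185), while the peptide transporter Tap1 read 26.1 and 23.1 against 13.2 and 11.6 without a call. None of 15 Armcx and related X-linked genes or 19 immediate early and stress genes was called by limma. At an unadjusted p under 0.05 the first list held 0 and 2 genes in the 2 fits and the second 0 and 4.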

How the data were processed

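Total RNA from 8 samples was amplified as amino allyl aRNA and hybridised with Cy5 to one-colour TORAY arrays, per the labels' protocols. The values are the intensity values that the authors deposited, linear and scaled to an array median near 20. How they were read, corrected for background and scaled, and why some are missing, is not given in the sources used here; signal over background is unknown. Probes with a value per array numbered 21126 to 22404. Intensities were converted to log2 with no further normalization, and a probe was tested where all 4 EG and Day6 arrays had a value. The number of arrays limits the precision.

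Tests were two-sided limma 3.58.1 (R 4.3.3) fits on all 8 arrays in 4 groups, with Benjamini-Hochberg adjustment over all probes tested. A call required an adjusted p under 0.05 and no overlap. A second fit added the array series as a block. All p-values named adjusted p are from these fits. The scripts were tested on simulated data.

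Symbols came from the platform annotation for 16631 probes, with 3947 older symbols updated; 6842 probes have none. The brightest probe stood for a gene with several. The text names the 12 genes with the largest gap or called change in each direction and fit, up to 6 genes of each of 30 lists, marker genes, and a few singled out after their values were seen. The members, lists and rules were chosen with earlier results of these data known. Alternatives were quantile normalization, centring, a pseudocount of 2.275, a filter on dim probes, trend and robust variance, other blocks, other sets of arrays, and leaving out each array.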

Additional observations from a re-analysis of the deposited data

How the results depend on the processing

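With 38 probes called in the first fit, centring gave 47. Quantile normalization gave 82, the pseudocount 119, leaving out the dimmest 25% of probes 94, trend and robust variance 75, series A arrays alone 265, and the array series as a block 457. The 4 arrays of EG and Day6 alone gave 0 calls, with 2607 probes at an unadjusted p under 0.05. Leaving out 1 array gave 0 to 7. From the 457 of the blocked fit, quantile normalization gave 499, the pseudocount 1006, leaving out the dimmest 25% 760, trend and robust variance 1092 and a random block 676, and leaving out 1 array 0 to 467. The causes were not tested. A replicate block gave 340 calls. The numbers do not pair EG with Day6: the deviations of same-numbered arrays from their group means correlated at 0.06 (19524 probes; genes are not independent replicates), while those between E11.5 PGC, Day3 and Day6, where the number goes with the series, correlated at 0.55 to 0.69. None of the 54 named genes that a fit called changed sign in any alternative. Of the 168 genes without a call that the naming rules chose, 22 did, among them Thy1 (-3.17 to 2.96), S100a4 (-1.77 to 4.89), Acta2 (-4.84 to 0.17), Dppa3, Esrrb, Klf4, Zfp42, Ddx4, Csf1r, Ptprc and Kdm5d. The call rule fixed part of this contrast in advance. A call required no overlap, and with no overlap leaving out 1 array cannot turn the sign of a change in the first fit. In the first fit, over all named genes with or without a call, 3510 values kept their side of the threshold, 132 lost the call and 116 gained it. Most of the 3510 belong to genes without a call. The 16 genes called there stayed under an adjusted p of 0.05 in 7 to 12 of 17 alternatives. In the blocked fit, counted over its 54 called genes only, 392 values kept the call and 308 lost it. Each of these genes stayed under the threshold in 4 to 12 of up to 13 alternatives. Of the list medians 469 moved by less than the spread and 41 by more.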

Other observations

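Of the 38 called probes, 11 carry no gene symbol, and 1 of these had the largest change of all called probes higher in EG. Probe M400012366 read 8.17 and 6.24 in Day6 and 449 and 344 in EG (log2 change 5.78 ± 0.37, adjusted p = 0.0110). Its E11.5 PGC values were 902 and 527 and its Day3 values 3.43 and 4.90 so, as for Lefty1, E11.5 PGC and EG were high and the culture days low. Probe M400011292 read 30.98 and 44.3 against 553 and 1755 (4.73 ± 0.54, adjusted p = 0.0369), with EG replicate 2 about 3-fold above replicate 1, as for Zscan4c. The uncharacterised A430060F13Rik (5.73 and 5.36 against 72.5 and 252) and the cornified-envelope gene Sprr2e (1.92 and 1.52 against 10.4 and 31.3) showed the same split between the EG arrays and were called with the block (adjusted p = 0.0439 and 0.0412; Day3 replicate 1 had no value for the former). Probe M400002945 fell from 117 and 85.1 to 13.96 and 11.02 (adjusted p = 0.0241).

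The called genes were also described on the E11.5 PGC and Day3 arrays, whose spread entered both fits, so the shares that follow are not independent of the calls. Of the 32 probes higher in EG, 21 (65.6%) had both E11.5 PGC arrays above both Day3 arrays, against 25.3% of the 19524 probes with values on all 8 arrays. Of the 6 lower in EG, 4 (66.7%) had both E11.5 PGC arrays below both Day3 arrays, against 16.3%. Among probes called with the block the shares were 112 of 283 (39.6%) and 73 of 160 (45.6%). These shares are descriptions and were not tested.

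The Y-linked zinc-finger gene Zfy1 fell with the block, from 14.8 and 24.6 in Day6 to 2.09 and 3.09 in EG, near the floor (adjusted p = 0.0210). E11.5 PGC read 47.5 and 52.05. Kdm5d, another Y-linked gene, looked up after that value was seen, overlapped (22.3 and 33.7 against 30.6 and 29.3).

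The X-linked Magea genes, which are known from the germ line and tumours, were low in EG and far apart between the Day6 arrays, and none was called. Magea2 read 62.4 and 616 in Day6 against 5.24 and 11.7 in EG (-4.64 ± 1.27, adjusted p = 0.186), and Magea8 22.7 and 302 against 4.30 and 5.74. The Magea genes share sequence, so their probes may share signal. In Day3, Magea2 read 13.3 and 113, again higher on the series B array.

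Some probes had values in 1 group alone. Both EG arrays and neither Day6 array had a value for 141 probes, with a highest intensity of 11.02, and both Day6 arrays and neither EG array for 123, with a highest of 17.0.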
